A study of Danio rerio with 23 samples.

Results

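Axon guidance genes encode the secreted and membrane-bound cues, and their receptors, that steer growing neurites, and many of them also act between epithelial, vascular and mesenchymal cells. Netrins are laminin-related secreted cues that attract through Dcc and repel through Unc5 receptors, while Slits repel through Robo receptors. Semaphorins signal through plexins, the secreted class 3 forms with neuropilins as co-receptors, and ephrins bind Eph receptor tyrosine kinases on neighbouring cells. Boc and Cdon are immunoglobulin-superfamily co-receptors of Hedgehog ligands, and Boc also guides commissural axons.

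The set holds all zebrafish genes whose symbol begins with sema, plxn, nrp, unc5, robo, epha, ephb, efna or efnb, is ntn or slit with a digit, or is dcc, boc or cdon. It comprised 101 of the 31902 counted features. One of them, unc50, is caught by its first letters alone and is not a guidance gene, so 100 guidance genes remained. These were 53 ligands (30 semaphorins, 14 ephrins, 5 netrins and 4 Slits) and 47 receptors (16 Eph receptors, 14 plexins, 7 netrin receptors, 4 neuropilins, 4 Robos, boc and cdon). In the comparisons below, the numbers, shares and medians of tested members still include unc50. Counts by ligand, receptor or family leave it out. Where duplicated zebrafish genes share one symbol in the annotation, the Ensembl identifier is given, and reads of such close copies can be split between them uncertainly.

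The study compared the proneural factors Neurod1 and Ascl1a, and forms of Neurod1 lacking a conserved stretch, in zebrafish endoderm. In the gain-of-function experiment, AB-strain Tg(sox17:dsred) embryos with a wild-type genotype carried a heat-inducible hsp70l transgene for Ascl1a (n = 3), Neurod1 (n = 4), Neurod1 without its ultra-conserved element (Neurod1ΔUCE, n = 3) or Neurod1 without the larger evolutionary conserved domain around it (Neurod1ΔECD, n = 3). Control embryos carried no such transgene (n = 3), and all 5 groups, controls included, were heat-shocked at 38 and 48 hours post-fertilisation (hpf). The dsred+ endodermal cells were sorted from the trunks of about 150 pooled embryos at 52 hpf. In the second experiment, pax6b:GFP+ enteroendocrine cells (EECs), the hormone-producing cells of the gut epithelium, were sorted from dissected guts of about 200 pooled larvae at 4 days post-fertilisation (dpf). These larvae were homozygous for a neurod1 allele that lacks the same element (neurod1ΔUCE-/-, n = 4) or were wild type (n = 3). The hsp70l promoter acts in all tissues, so the transgenes were not restricted to the endoderm. Since each library is a pool of sorted cells, fewer cells of one type and less RNA per cell cannot be told apart, and p-values measure only the spread between these preparations.

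Total counts lay between 8364161 and 22301237 per library. Levels are given as CPM (counts scaled to a common library size, here over all 23 libraries), while fold changes come from the fit of each experiment, and a gene was called at a false discovery rate (FDR) of at most 0.1. The 12 matched EEC markers summed to 9370 to 20200 CPM in EEC libraries and to 35 to 947 CPM in endodermal libraries. The 12 endoderm markers summed to 2150 to 6520 CPM over the endodermal libraries and to 2530 to 4560 CPM over the EEC libraries. This second list thus did not separate the 2 kinds of cells. Markers of other cells were also counted in the sorted endoderm: the 5 matched muscle markers reached 17600 CPM in control replicate 3 and 8260 CPM in Neurod1 replicate 2, and the 7 mesenchyme markers reached 3470 CPM in Neurod1ΔUCE replicate 1 and 2310 CPM in control replicate 1. The 9 matched markers of neurons and neural tube summed to 52.2, 11.6 and 371 CPM in controls, in replicate order. Transgenic libraries had sums of 22.8 to 107 CPM for this list. The 5 epidermis markers reached 8760 CPM in control replicate 3, and the 5 blood markers reached 2650 CPM in Neurod1ΔUCE replicate 2. EEC libraries held such markers too, with sums of 1040 to 3200 CPM for enterocytes and 74.5 to 347 CPM for neurons and neural tube. Liver and goblet markers reached 1050 and 937 CPM in wild-type EEC replicate 2, and mesenchyme markers 684 CPM in mutant EEC replicate 3. Muscle and blood markers reached only 25.9 and 8.02 CPM in EEC libraries. The part of these cells in the values of guidance genes was not tested. In the transgene check, the feature for the ascl1a coding region had 29.7 to 270 CPM in Ascl1a libraries and 0.348 to 2.78 CPM in controls. The feature for the neurod1 region of the transgenes had 20 to 55.3 CPM in Neurod1 libraries and 0.121 to 1.13 CPM in controls, but also 23.1 to 182 CPM in Ascl1a libraries. It stood at 1210 CPM in the library labelled Neurod1ΔUCE replicate 1 and at only 1.65 and 1.73 CPM in those labelled replicates 2 and 3, close to the controls, so these counts do not show the transgene in that pair. Other values of the same pair lay above the controls: the endogenous neurod1 feature had 9.9 and 7.54 CPM, against 0 to 4.35 CPM in controls, and the EEC markers summed to 464 and 225 CPM, against 35 to 113 CPM in controls. Ascl1a replicate 1 also lay above the controls in both, at 7.3 and 205 CPM, so these values do not identify a Neurod1 form. In Neurod1ΔECD libraries the transgene feature had 7.82, 4.34 and 6.18 CPM. By the study's account, reads that mapped to both this feature and neurod1 were left out. The feature can therefore miss transgene reads, and a low value does not show that the transgene was absent. Its high values were not limited to Neurod1 forms, as the Ascl1a libraries show.

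Most guidance genes were detectable in both kinds of cells. Of the 100 genes, 60 had at least 1 CPM in every wild-type EEC library and 78 in every control endoderm library, and 2 had no count in any wild-type EEC library. Between the replicates of a group, the highest library exceeded the lowest by a median of 2.45-fold among such genes in wild-type EECs and 2.197-fold in control endoderm. Levels are not ranked between genes here, as they are not scaled to transcript length. Within the Eph receptors, group means ran between 0 CPM and 30.7 CPM (epha7) in wild-type EECs and between 0.171 CPM and 75.6 CPM (ephb2, ENSDARG00000021539) in control endoderm. The semaphorins ran between 0.024 and 60.0 CPM in wild-type EECs and between 0.837 and 39.3 CPM in control endoderm. The members with the most reads, which need not be the most transcripts, were the same in both kinds of cells for netrins (ntn1a), Hedgehog co-receptors (boc), Robos (robo3) and Slits (slit3, with 37.5 ± 9.50 CPM in wild-type EECs and 40.5 ± 14.7 CPM in control endoderm; SD, n = 3 each). Among plexins they were plxnb1 (ENSDARG00000075821) in wild-type EECs and plxnb2a in control endoderm, and plxnb2a itself had 58.9 ± 20.3 CPM in wild-type EECs and 58.4 ± 9.11 CPM in control endoderm (SD, n = 3 each). Likewise epha7 had 30.7 ± 17.1 CPM in wild-type EECs and 34.8 ± 9.22 CPM in control endoderm (SD, n = 3 each). Differences in slit3, plxnb2a and epha7 were smaller than the spread between replicates.

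The transgenic endoderm was first searched for guidance genes that differed from control endoderm. The netrin gene ntn1a was lower in every transgenic library than in every control library. It had 1.06, 3.37 and 1.69 CPM in Ascl1a libraries, 6.85, 3.15, 4.81 and 7.63 CPM in Neurod1 libraries, 6.79, 4.46 and 1.91 CPM in Neurod1ΔUCE libraries and 4.89, 5.63 and 3.49 CPM in Neurod1ΔECD libraries, against 74.4, 20.8 and 17.4 CPM in controls. All 13 transgenic libraries thus lay below the lowest control, and control replicate 1 stood far above the other controls. The log2 fold change was -4.18 ± 0.68 (SE) for Ascl1a, which was called by edgeR's quasi-likelihood test with an FDR of 0.095. It was -2.75 ± 0.57 for Neurod1 (FDR 0.241), -3.12 ± 0.65 for Neurod1ΔUCE (FDR 0.161) and -3.07 ± 0.64 for Neurod1ΔECD (FDR 0.28), none of which was called. These 4 comparisons share the same 3 controls. Without control replicate 1, which also held the second highest mesenchyme marker sum, the log2 fold changes shrank to -3.24 for Ascl1a (FDR 0.631), -1.80 for Neurod1 (FDR 1), -2.15 for Neurod1ΔUCE (FDR 0.542) and -2.12 for Neurod1ΔECD (FDR 0.868). The part of the other cells in these values was not tested. The Ascl1a call was also lost without control replicate 2 (FDR 0.268) and without any 1 Ascl1a library (FDR 0.206 to 0.789). Of all genes, edgeR called 0 without control replicate 1 for Ascl1a and for Neurod1. In the same setting it called 3 for Neurod1ΔUCE and 4 for Neurod1ΔECD. DESeq2, the study's own tool, gave ntn1a an FDR between 7.3e-07 and 0.00144 in the 4 comparisons.

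The Hedgehog co-receptor gene boc was lower in most transgenic libraries than in controls, without passing the edgeR test. It had 28.5, 20.1 and 16.6 CPM in Ascl1a libraries, 21.8, 22.5, 24.0 and 23.2 CPM in Neurod1 libraries, 60.1, 27.2 and 15.98 CPM in Neurod1ΔUCE libraries and 30.3, 31.1 and 13.9 CPM in Neurod1ΔECD libraries, against 83.5, 56.8 and 72.4 CPM in controls. Only Neurod1ΔUCE replicate 1 overlapped the controls, and the other 12 transgenic libraries lay below the lowest of them. That library also had the highest mesenchyme marker sum. In replicate order these sums were 452, 519 and 50.5 CPM in Ascl1a libraries, 104, 402, 557 and 218 CPM in Neurod1 libraries, 3470, 331 and 75.1 CPM in Neurod1ΔUCE libraries and 989, 360 and 152 CPM in Neurod1ΔECD libraries, against 2310, 359 and 1130 CPM in controls. Within controls and Neurod1ΔUCE libraries boc and the mesenchyme sum had the same order, and within the Ascl1a, Neurod1 and Neurod1ΔECD libraries they did not. Their part in the boc values was not tested. The log2 fold changes of -1.69 ± 0.43 for Ascl1a (FDR 0.795), -1.65 ± 0.39 for Neurod1 (FDR 0.377), -1.07 ± 0.42 for Neurod1ΔUCE (FDR 0.592) and -1.58 ± 0.43 for Neurod1ΔECD (FDR 0.695) were not called by edgeR. DESeq2 called boc for Neurod1 (FDR 0.0401) and for Ascl1a (FDR 0.0739). The other Hedgehog co-receptor, cdon, had 42.5, 28.1 and 25.3 CPM in Ascl1a libraries, against 47.2, 39.8 and 42.4 CPM in controls, and the groups overlapped. Other members came close to boc in the pooled count over 13 transgenic libraries. For efnb3, sema3c and sema4g (ENSDARG00000088143), 11 libraries each lay below the lowest control, and for sema4ab 11 lay above the highest. The share of all genes with such pooled patterns was not determined for ntn1a, boc or these members.

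**Figure D1:**
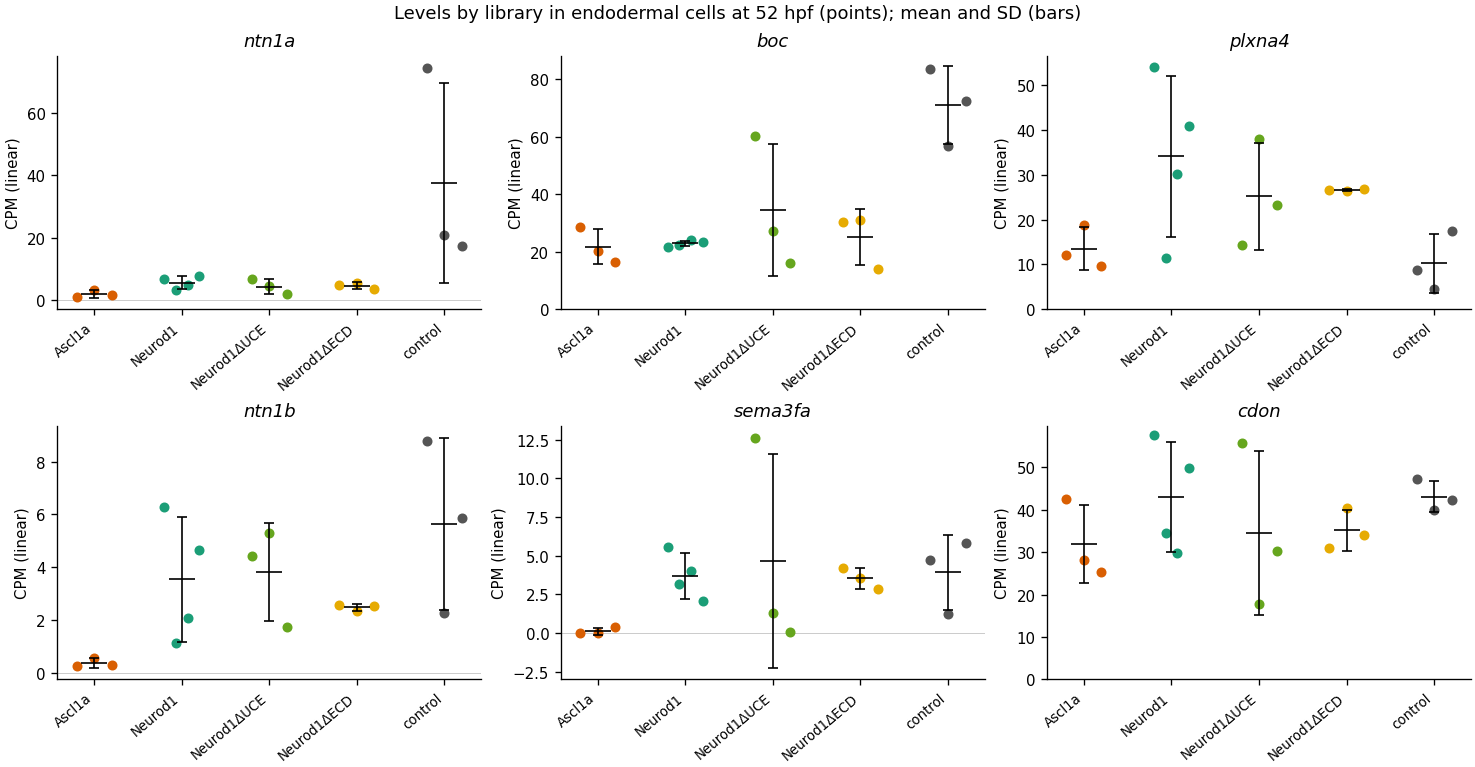
Levels of 6 guidance genes in endodermal cells at 52 hpf, in CPM on a linear axis, by library (points) with the mean and SD of each group (bars; n = 4 for Neurod1 and 3 for the others). All 13 transgenic libraries lie below the lowest control for ntn1a, and 12 of 13 do for boc, while cdon overlaps between groups. The share of all genes with such a pattern was not determined.

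Apart from ntn1a, Ascl1a endoderm had lower values of further cues. The second netrin-1 gene, ntn1b, had 0.236, 0.572 and 0.298 CPM in Ascl1a libraries, against 8.80, 2.26 and 5.86 CPM in controls, with a log2 fold change of -3.86 ± 0.79 (edgeR FDR 0.557). The class 3 semaphorin gene sema3fa had 0, 0 and 0.397 CPM in Ascl1a libraries, against 4.74, 1.22 and 5.80 CPM in controls (log2 fold change -4.88 ± 1.45, edgeR FDR 0.795). In both genes the groups did not overlap, though neither was called by edgeR. The netrin gene ntn2 had no count in any Ascl1a library, against 4.59, 1.04 and 0.0605 CPM in controls. With a floor of 3 counts per library its mean was at least 6.76-fold lower in Ascl1a libraries, but 1 control itself was near the floor and the gene was not called (edgeR FDR 0.795). DESeq2 called ntn1b (FDR 0.00145) and sema3fa (FDR 0.0539) beside ntn1a and boc.

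Across the set, edgeR called 1 of the 97 tested genes for Ascl1a against control (1.03%), while 0.0159% of all 18911 genes were called. At an unadjusted p below 0.05 stood 14 set members (14.4%), 1 higher and 13 lower, beside 6.11% of all genes. The groups did not overlap for 17 members (17.5%), 3 higher and 14 lower, beside 14.1% of all genes. The median log2 fold change of the members was -0.42, against -0.02 over all genes, and 71.1% of the members had a negative value, against 50.9% of all genes. DESeq2 called 4 members (4.08%), beside 0.453% of all genes. All 4 Slits and both Hedgehog co-receptors had negative values, as had 21 of 30 semaphorins and 10 of 13 ephrins. Of these edgeR called none, and DESeq2 called boc and sema3fa. The 4 genes not tested for low counts were ephb1, ephb2 (ENSDARG00000037373), efna3a and unc5d (ENSDARG00000061541).

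For Neurod1 against control, edgeR called none of the 97 members, beside 0.0423% of all genes. Unadjusted p-values below 0.05 were found for 4 members (4.12%), 2 higher and 2 lower, against 4.25% of all genes, and the groups did not overlap for 5 members (5.15%), against 8.14% of all genes. DESeq2 called 2 members (ntn1a and boc, both lower; 2.04%), beside 0.557% of all genes. The plexin gene plxna4, which encodes a signalling partner of neuropilins for class 3 semaphorins, had the largest increase among the 5 members of smallest p. It had 54.0, 11.3, 30.1 and 40.9 CPM in Neurod1 libraries, against 8.72, 4.61 and 17.5 CPM in controls, so that 1 Neurod1 library, replicate 2, fell within the control range. The log2 fold change was 1.71 ± 0.52 (edgeR FDR 0.749). The highest control for plxna4, replicate 3, also had the highest neuron and neural tube marker sum of the endodermal libraries (371 CPM). The EEC markers summed to 947, 331, 567 and 791 CPM in Neurod1 libraries, in replicate order, against 39.4, 35 and 113 CPM in controls. Within both groups plxna4 had the same order as these EEC sums. The part of neurons or EECs in the plxna4 values was not tested. The semaphorin gene sema5a had 13.8, 5.87, 10.5 and 9.88 CPM in Neurod1 libraries, against 6.69, 2.44 and 5.20 CPM in controls (log2 fold change 1.05 ± 0.45, edgeR FDR 1), again with Neurod1 replicate 2 inside the control range. Outside those 5 members, nrp1b had 36.3, 12.1, 7.59 and 15.3 CPM in Neurod1 libraries, above the 6.62, 4.96 and 4.84 CPM of controls. Only DESeq2 on only the groups compared called it (log2 fold change 1.67, FDR 0.0873), in a setting with 324 calls over all genes. Within Neurod1 libraries sema5a and nrp1b did not have the order of the EEC marker sums. The genes plxna4, sema5a and nrp1b were also called as higher in wild-type EECs, as given below.

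The 2 transcription factors were then compared directly. In Neurod1 libraries ntn1b had 6.28, 1.11, 2.09 and 4.67 CPM, above the Ascl1a range of 0.236 to 0.572 CPM, and the log2 fold change of Neurod1 over Ascl1a was 3.17 ± 0.75 (edgeR FDR 0.369). The gene sema3fa had 5.56, 3.15, 3.98 and 2.06 CPM in Neurod1 libraries, also above every Ascl1a library (log2 fold change 4.78 ± 1.42, edgeR FDR 0.608). The plexin gene plxnb1 (ENSDARG00000075821), a receptor for class 4 semaphorins, had 29.3, 14.7, 15.5 and 16.8 CPM in Neurod1 libraries and 4.24, 7.62 and 11.4 CPM in Ascl1a libraries, with a log2 fold change of 1.29 ± 0.43 (edgeR FDR 0.72). For epha6 the groups overlapped, with 0.178 ± 0.169 CPM (SD, n = 4) in Neurod1 libraries and 1.54 ± 2.05 CPM (SD, n = 3) in Ascl1a libraries. None of the 97 members was called by edgeR, beside 0.037% of all genes, and 10 (10.3%) had an unadjusted p below 0.05, against 5.37% of all genes. The groups did not overlap for 6 members (6.19%), all higher in Neurod1 libraries, against 8.48% of all genes. DESeq2 called sema3fa (FDR 0.0244) and ntn1b (FDR 0.00758), or 2.04% of the members, beside 0.786% of all genes.

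The deleted forms of Neurod1 were compared with control and with full-length Neurod1. In Neurod1ΔUCE libraries plxna4 had 14.4, 38.1 and 23.2 CPM, overlapping the controls, and in Neurod1ΔECD libraries it had 26.6, 26.3 and 26.7 CPM, above every control. The log2 fold changes were 1.25 ± 0.54 (FDR 0.65) and 1.30 ± 0.54 (FDR 0.75) by edgeR. Among the members of smallest p, nrp2 (ENSDARG00000038446), a co-receptor for class 3 semaphorins and VEGF, had 72.9 ± 45.8 CPM in Neurod1ΔUCE libraries and 148 ± 62.6 CPM in controls (SD, n = 3 each). The ephrin gene efnb3a had 8.00 ± 6.43 CPM in Neurod1ΔUCE libraries and 16.8 ± 5.55 CPM in controls (SD, n = 3 each), and both genes overlapped between groups. In Neurod1ΔECD libraries ephb3 (ENSDARG00000031548) had 1.68, 0.777 and 2.14 CPM, against 5.11, 2.70 and 12.3 CPM in controls (log2 fold change -2.18 ± 0.79, edgeR FDR 0.75). The semaphorin gene sema5b (ENSDARG00000075648) had 0.869, 0.194 and 1.19 CPM there, against 4.29, 1.57 and 5.68 CPM in controls (log2 fold change -2.40 ± 0.87, edgeR FDR 0.75). In these last 2 genes all Neurod1ΔECD libraries lay below all controls.

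For Neurod1ΔUCE against control, edgeR called none of 97 members, beside 0.0582% of all genes. An unadjusted p below 0.05 was found for 4.12% of the members and 7.11% of all genes, and the groups did not overlap for 4 members (4.12%), against 10% of all genes. DESeq2 called ntn1a only, 1.02% of the members, beside 1.18% of all genes. The library labelled Neurod1ΔUCE replicate 1, with the highest mesenchyme and endothelium marker sums (3470 and 297 CPM), bore on these values: without it ntn1a was called by edgeR (log2 fold change -3.61, FDR 0.0873) and boc reached -1.78 (FDR 0.107). Leaving it out also raised the edgeR calls over all genes from 11 to 65, so the change was not particular to these 2 genes. These values rest on replicates 2 and 3, in which the transgene feature stood near the controls, as the library left out is the one that shows it clearly. For Neurod1ΔECD, edgeR called none of 97 members either, beside 0.0423% of all genes, with 8.25% of the members and 6.13% of all genes at an unadjusted p below 0.05. The groups did not overlap for 22 members (22.7%), 5 higher and 17 lower, against 18.4% of all genes, and 80.4% of the members had a negative log2 fold change, against 51.8% of all genes. The median was -0.59 over the members and -0.03 over all genes. DESeq2 called ntn1a only, 1.04% of the members, beside 0.396% of all genes.

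**Figure D2:**
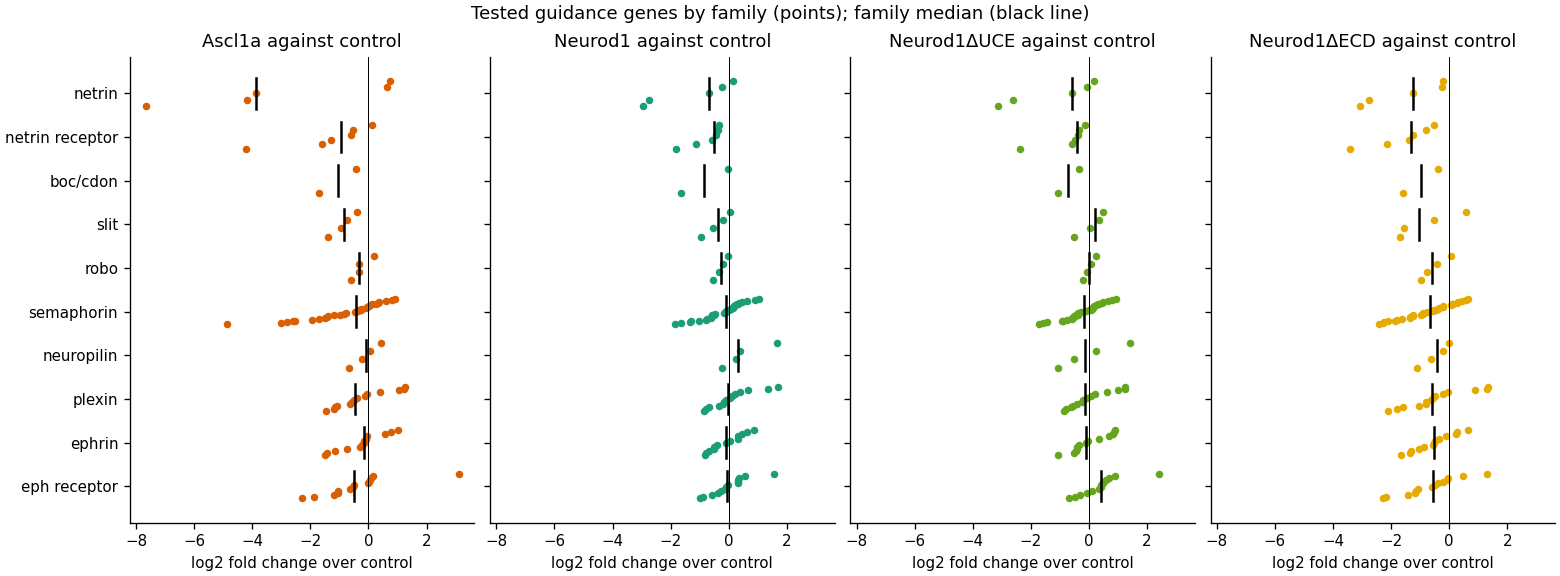
Log2 fold change over control (x axis) of each tested guidance gene (points), by family, for Ascl1a, Neurod1, Neurod1ΔUCE and Neurod1ΔECD, with the family median (black line). The 4 panels share the same 3 controls, and only ntn1a for Ascl1a passed an FDR of 0.1 by edgeR, while the value of ntn2 for Ascl1a rests on a group without counts.

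Against full-length Neurod1, the 6 libraries of the deleted forms taken as 1 condition showed no called member, and edgeR called 0% of all genes (744 genes, or 3.93%, and 3 members, or 3.09%, had an unadjusted p below 0.05). DESeq2 called 0.133% of all genes and no member. The Slit ligand gene slit3 had 49.4, 58.8 and 67.8 CPM in Neurod1ΔUCE libraries and 54.3, 65.4 and 72.6 CPM in Neurod1ΔECD libraries, against 47.6, 25.5, 29.0 and 40.7 CPM in Neurod1 libraries. All 6 libraries of the deleted forms were above all 4 Neurod1 libraries, with a log2 fold change of 0.75 ± 0.25 (edgeR FDR 1), and the controls at 39.5, 26.4 and 55.6 CPM overlapped both. The plexin gene plxnc1, which encodes a receptor of the semaphorin Sema7a, had 7.39 ± 4.31 CPM with the deleted forms (SD, n = 6) and 17.8 ± 3.05 CPM with Neurod1 (SD, n = 4), a log2 fold change of -1.32 ± 0.51 (edgeR FDR 1). These were the 2 members without overlap (2.06%), beside 0.82% of all genes. For sema4c, with 13.1 ± 8.79 CPM in the deleted forms (SD, n = 6) and 29.7 ± 16.5 CPM in Neurod1 (SD, n = 4), the groups overlapped.

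The neurod1ΔUCE-/- EECs were next compared with wild-type EECs. The study's own comparison also used wild-type EEC preparations from earlier work, which are not among the libraries used here. At an FDR of 0.1 it reported more differing genes than were called here, where edgeR called 3 and DESeq2 called 189 of all genes. A missing call here therefore does not show that a gene was unchanged. None of the 83 tested members was called by edgeR, beside 0.0186% of all 16154 genes. An unadjusted p below 0.05 was found for 3 members (3.61%), against 3.7% of all genes, and the median log2 fold change was 0.02 over the members as over all genes. The netrin receptor gene unc5c (ENSDARG00000099133) had 8.02, 5.23, 6.62 and 2.497 CPM in mutant EECs, against 0.433, 0.941 and 0.665 CPM in wild-type EECs. All mutant libraries lay above all wild-type libraries, with a log2 fold change of 3.04 ± 1.21 (edgeR FDR 1). DESeq2 called this gene (FDR 0.0246) as the only member (1.12%), beside 1% of all genes. The second copy, unc5c (ENSDARG00000087341), had 22.8, 12.5, 24.9 and 21.5 CPM in mutant EECs, against 13.8, 7.18 and 10.2 CPM in wild-type EECs, with overlapping groups.

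Some genes for ephrin-A proteins, membrane-anchored ligands of Eph receptors, had lower values in the mutant. The gene efna3 had 0.558, 4.30, 7.75 and 15.1 CPM in mutant EECs, against 22.2, 17.3 and 49.5 CPM in wild-type EECs (log2 fold change -2.09 ± 0.88, edgeR FDR 1). The gene efna1 (ENSDARG00000018787) had 36.4, 50.3, 34.3 and 60.8 CPM in mutant EECs, against 67.7, 79.1 and 77.7 CPM in wild-type EECs (log2 fold change -0.71 ± 0.34, edgeR FDR 1). Neither gene overlapped between the groups. The Eph receptor gene epha3 had 26.7, 38.0, 23.1 and 47.0 CPM in mutant EECs, against 18.2, 14.1 and 3.51 CPM in wild-type EECs, also without overlap (log2 fold change 1.51 ± 0.60, edgeR FDR 1). For robo3, with 398 ± 122 CPM in mutant EECs (SD, n = 4) and 213 ± 126 CPM in wild-type EECs (SD, n = 3), the ranges overlapped. In all, the groups did not overlap for 8 of the 83 members (9.64%), 3 higher and 5 lower in the mutant, beside 6.65% of all genes.

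The netrin ligands themselves were scarce in EECs of both genotypes. Mutant EECs had 9.91, 0, 6.06 and 4.53 CPM of ntn1a, against 8.65, 6.93 and 4.18 CPM in wild-type EECs. The ligand gene ntn5 had no count in any mutant library, against 0, 5.39 and 7.22 CPM in wild-type EECs, so that it was detected in some wild-type libraries only. The attractant receptor gene dcc had 17.0, 4.20, 0.916 and 8.97 CPM in mutant EECs, against 9.37, 1.45 and 8.74 CPM in wild-type EECs. The 18 members not tested in EECs for low counts included ntn1b, ntn2, ntn4, ntn5 and unc5b.

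Wild-type EECs at 4 dpf were finally set beside control endoderm at 52 hpf. The 2 kinds of cells differ also in age, reporter and gate, dissociation and heat shock, and these cannot be told apart from the cell type. Of 98 tested members, edgeR called 36 (36.7%), close to the 38.1% of all 20397 genes, so the set as a whole did not stand apart from the background. Higher in EECs were 14 members (14.3%, against 16.1% of all genes) and lower were 22 (22.4%, against 22% of all genes). The median log2 fold change was -0.18 over the members and -0.19 over all genes. Among the ligands 4 of 52 were higher and 12 were lower, and among the receptors 10 of 45 were higher and 10 were lower. Of the 36 calls, 23 held under every alternative tried, and the 13 lost under at least 1 are marked below as unstable.

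In the netrin system edgeR called 4 of 5 ligands, all lower in EECs, and 4 of 7 receptors, of which 3 were higher and 1 was lower. Of these calls, only those of ntn1b, unc5a and unc5d (ENSDARG00000061541) held under every alternative. Family counts here and below stand beside 16.1% of all genes called as higher and 22% called as lower. The receptor gene unc5a had 15.2, 18.2 and 31.1 CPM in wild-type EECs, against 1.13, 1.39 and 1.39 CPM in control endoderm, a log2 fold change of 4.04 ± 0.72 (edgeR FDR 0.000302). Mutant EECs had 26.7, 14.9, 20.3 and 56.1 CPM of unc5a, and the 16 endodermal libraries reached no more than 2.83 CPM. The gene unc5d (ENSDARG00000061541) had 10.7, 13.2 and 17.3 CPM in wild-type EECs, against 0.0752, 0 and 0.121 CPM in control endoderm, where it rested on 3 counts or fewer in all. Its ratio of EECs to control endoderm was 185 with a counting interval of 62.8 to 899 at 95%, and edgeR gave an FDR of 0.00149. The second copy unc5d (ENSDARG00000092722), with 9.67 ± 7.34 CPM in wild-type EECs and 1.53 ± 0.70 CPM in control endoderm (SD, n = 3 each), rose by 2.65 ± 1.03 on the log2 scale but was unstable (edgeR FDR 0.0573). In contrast, unc5c (ENSDARG00000099133) fell by 2.201 on the log2 scale (edgeR FDR 0.0784, unstable). The other copy, unc5c (ENSDARG00000087341), did not fall. It had 13.8, 7.18 and 10.2 CPM in wild-type EECs, against 5.26, 6.18 and 9.86 CPM in control endoderm, with overlapping groups and no edgeR call.

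For the ligand gene ntn1b the wild-type EEC libraries had 0, 0 and 0.095 CPM, against 8.80, 2.26 and 5.86 CPM in control endoderm, a ratio of 0.00477 with a counting interval of 0.00012 to 0.0268 (edgeR FDR 0.0134). The genes ntn1a (6.59 ± 2.26 CPM in wild-type EECs and 37.5 ± 32.0 CPM in control endoderm, edgeR FDR 0.0581), ntn2 (ratio 0.0155 with a counting interval of 0.000387 to 0.0889, edgeR FDR 0.0477) and ntn4 (0.239 ± 0.218 CPM in wild-type EECs and 2.40 ± 1.45 CPM in control endoderm, edgeR FDR 0.0582; SD, n = 3 each) were called as well but were unstable. Without control replicate 1, ntn1a had an FDR of 0.292. Only the controls stood above the EECs in ntn1a. The 13 transgenic endodermal libraries had 1.06 to 7.63 CPM, which overlapped the 8.65, 6.93 and 4.18 CPM of wild-type EECs. Both Hedgehog co-receptors fell. The gene boc had 9.01, 3.59 and 2.56 CPM in wild-type EECs, against 83.5, 56.8 and 72.4 CPM in control endoderm (log2 fold change -3.80 ± 0.86, edgeR FDR 0.00243), and cdon had 3.46, 8.30 and 0 CPM in wild-type EECs, against 47.2, 39.8 and 42.4 CPM in control endoderm (log2 fold change -3.45 ± 1.09, edgeR FDR 0.0212).

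**Figure D3:**
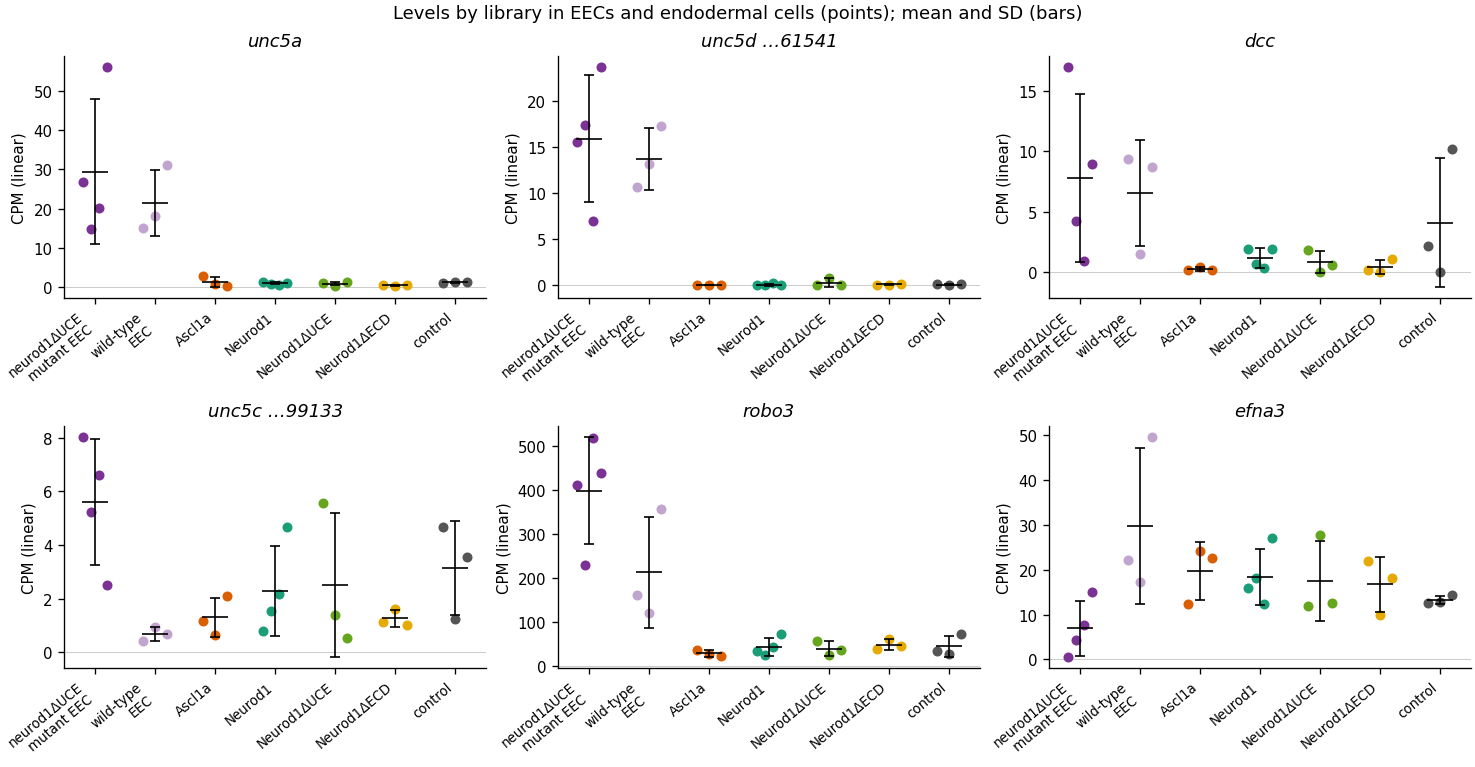
Levels of 6 guidance genes in all 7 groups, in CPM on a linear axis, by library (points) with the mean and SD of each group (bars; n = 4 for mutant EECs and Neurod1 and 3 for the others). The netrin receptor genes unc5a and unc5d (ENSDARG00000061541) are higher in all 7 EEC libraries than in all 16 endodermal libraries. All mutant EEC libraries lie above all wild-type EEC libraries for unc5c (ENSDARG00000099133), a difference that edgeR did not call and DESeq2 did. Digits after a symbol are the end of the Ensembl identifier.

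Among Robo receptors, robo3, known for the crossing of the midline by commissural axons, had 161, 121 and 357 CPM in wild-type EECs, against 33.9, 27.6 and 71.8 CPM in control endoderm (log2 fold change 2.26 ± 0.49, edgeR FDR 0.00178). The gene robo1 also rose, by 1.04 ± 0.42 on the log2 scale (edgeR FDR 0.0644, unstable). The endothelial receptor gene robo4 fell, with 2.52, 1.63 and 1.80 CPM in wild-type EECs, against 9.92, 6.26 and 19.4 CPM in control endoderm (log2 fold change -2.57 ± 0.74, edgeR FDR 0.0122). The 4 matched endothelium markers summed to 0 to 0.599 CPM in wild-type EECs, with tie1 and flt4 at 0, and to 34.8 to 61.2 CPM in control endoderm, and their part in the robo4 value was not tested. Of the 4 Slits edgeR and DESeq2 called none, and voom called slit1 (ENSDARG00000044954) as lower (log2 fold change -2.57, FDR 0.0948).

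Of the 30 semaphorins, edgeR called 2 as higher and 3 as lower. DESeq2 on only the groups compared also called sema6ca (FDR 0.0117), sema3aa (FDR 0.0214) and sema4ab (FDR 0.0887) as lower. It further called sema5b (ENSDARG00000061471, FDR 0.0994) as lower and sema3fa (FDR 0.0581) as higher. With voom, sema3a, sema3aa, sema3e, sema3h and sema4ab were also called as lower and sema3fa as higher. The transmembrane semaphorin gene sema5a had 34.4, 28.6 and 104 CPM in wild-type EECs, against 6.69, 2.44 and 5.20 CPM in control endoderm (log2 fold change 3.54 ± 0.58, edgeR FDR 0.000134). The gene sema4b (ENSDARG00000074414) had 60.0 ± 25.8 CPM in wild-type EECs and 18.9 ± 10.9 CPM in control endoderm (SD, n = 3 each; edgeR FDR 0.0583, unstable). The secreted class 3 member sema3gb had 0.937, 1.20 and 1.80 CPM in wild-type EECs, against 69.2, 23.9 and 24.8 CPM in control endoderm (log2 fold change -4.90 ± 1.23, edgeR FDR 0.00536). The 2 others that edgeR called as lower, sema4aa and sema5b (ENSDARG00000075648), had 3 counts or fewer over the wild-type EEC libraries, and their ratios were 0.00801 (interval 0.000201 to 0.0453) and 0.0203 (interval 0.00415 to 0.0604).

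The semaphorin receptors split. The plexin gene plxna4 had 125, 44.6 and 96.1 CPM in wild-type EECs, against 8.72, 4.61 and 17.5 CPM in control endoderm (log2 fold change 3.11 ± 0.59, edgeR FDR 0.000537). The gene plxnb1 (ENSDARG00000075821) had 111, 70.6 and 118 CPM in wild-type EECs, against 15.6, 11.1 and 21.9 CPM in control endoderm (log2 fold change 2.62 ± 0.43, edgeR FDR 0.000154). In both, each EEC library exceeded each control. The gene plxnc1 fell (edgeR FDR 0.0458, unstable), while edgeR called none of the remaining 11 plexins, of which plxnd1 was called as higher by DESeq2 on only the groups compared (log2 fold change 2.15, FDR 0.0129). All 4 neuropilins were called: nrp1b rose (25.4 ± 1.60 CPM in wild-type EECs and 5.47 ± 0.99 CPM in control endoderm; edgeR FDR 0.0732, unstable), whereas nrp1 (39.8 ± 11.8 CPM in wild-type EECs and 140 ± 39.9 CPM in control endoderm; edgeR FDR 0.0271), nrp2 (ENSDARG00000038446; 32.3 ± 4.54 CPM in wild-type EECs and 148 ± 62.6 CPM in control endoderm; edgeR FDR 0.0164) and nrp2 (ENSDARG00000096546; edgeR FDR 0.071, unstable) fell (SD, n = 3 each).

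Ephrins of the A and B classes and their receptors completed the list. The ligand gene efna5 had 0.793, 3.34 and 2.37 CPM in wild-type EECs, against 62.9, 132 and 91.2 CPM in control endoderm, and its log2 fold change of -5.46 ± 0.77 had the lowest FDR of the set (edgeR, 2.97e-05). In contrast, efna2 (ENSDARG00000031372) had 29.3, 24.5 and 35.6 CPM in wild-type EECs, against 5.11, 1.48 and 3.93 CPM in control endoderm (log2 fold change 3.08 ± 0.74, edgeR FDR 0.00377). The gene efna1 (ENSDARG00000018787) had 67.7, 79.1 and 77.7 CPM in wild-type EECs, against 31.2, 22.5 and 19.1 CPM in control endoderm (log2 fold change 1.62 ± 0.39, edgeR FDR 0.0042). The transmembrane ephrin-B genes that were called all fell, namely efnb3 (8.66 ± 5.20 CPM in wild-type EECs and 40.2 ± 0.465 CPM in control endoderm, SD, n = 3 each; edgeR FDR 0.00154) and, with unstable calls, efnb1 (edgeR FDR 0.0537), efnb2 (ENSDARG00000074050; edgeR FDR 0.0375) and efnb3a (edgeR FDR 0.0808).

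The receptor gene epha6 had 16.2, 2.65 and 19.4 CPM in wild-type EECs, against 0.150, 0 and 0.363 CPM in control endoderm (log2 fold change 6.08 ± 1.40, edgeR FDR 0.00273). The 2 copies of epha4 differed in direction: ENSDARG00000054454 had 26.2, 20.4 and 35.7 CPM in wild-type EECs, against 2.18, 2.00 and 6.89 CPM in control endoderm (log2 fold change 2.89 ± 0.79, edgeR FDR 0.00947), while ENSDARG00000010767 had no count in wild-type EECs, against 2.48, 1.65 and 4.17 CPM in control endoderm. With the floor of 3 counts per library this copy was at least 11-fold lower in EECs (edgeR FDR 0.00155). The gene ephb2 (ENSDARG00000021539) fell, with 21.1, 14.7 and 25.8 CPM in wild-type EECs, against 48.9, 112 and 65.6 CPM in control endoderm (log2 fold change -1.88 ± 0.56, edgeR FDR 0.0156).

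**Figure D4:**
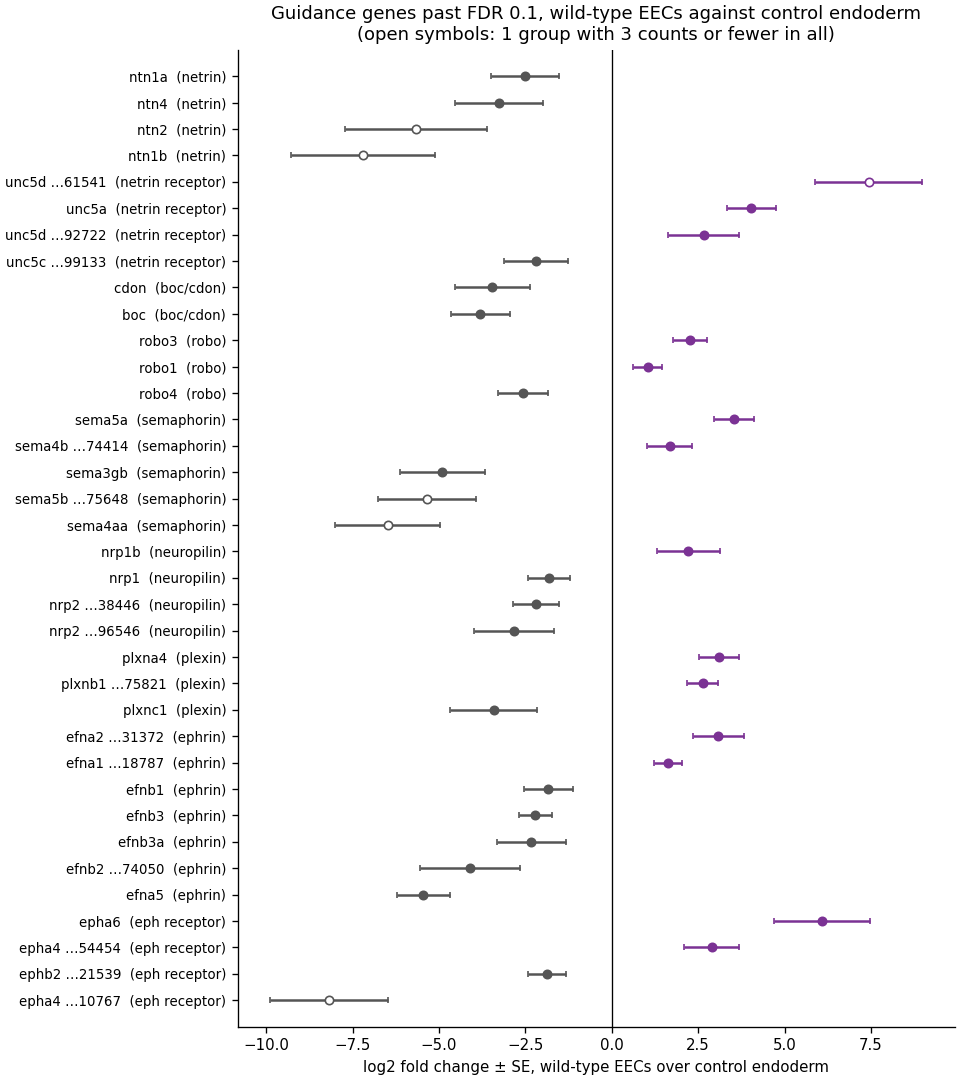
Log2 fold change with its SE (x axis) of the 36 guidance genes past an FDR of 0.1 in wild-type EECs over control endoderm, by family (y axis), with 14 higher (purple) and 22 lower (grey) in EECs. Open symbols mark genes with 3 counts or fewer in 1 group, whose fitted value is no measure of size, and digits after a symbol are the end of the Ensembl identifier.

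Further genes of the pathway, 17 ligands, receptors or adhesion partners outside the set and 47 cytoplasmic effectors, gave 40 matched genes. In the 6 comparisons of transgenic endoderm, edgeR called none of the 39 tested, and likewise none of 38 between mutant and wild-type EECs. Of smallest unadjusted p were dpysl4, rgmd and triob for Ascl1a against control, enah, l1cama and dpysl3 for Neurod1, dpysl4, enah and rgmb for Neurod1ΔUCE, and dpysl3, rgmb and dpysl4 for Neurod1ΔECD. They included farp2 and dpysl4 for Neurod1 against Ascl1a, and were dpysl4, rgmb and mical2b for the deleted forms against Neurod1, and ablim1b, trioa and chn1 for mutant EECs. Between wild-type EECs and control endoderm edgeR called 12 of 40 (30%), 6 higher and 6 lower, beside 38.1% of all genes, so this share did not exceed the background. Among the higher ones were mical1, an actin-oxidising enzyme downstream of plexins (47.4 ± 23.7 CPM in wild-type EECs and 4.20 ± 1.16 CPM in control endoderm, edgeR FDR 9.49e-05), the adhesion gene nrcama (53.5 ± 28.1 CPM in wild-type EECs and 1.71 ± 1.57 CPM in control endoderm, edgeR FDR 0.00168; SD, n = 3 each), dpysl4, the exchange factor gene triob and the focal adhesion kinase gene ptk2ab. Among the lower ones were the exchange factor genes arhgef12b and farp2, the adaptor gene crk, and flrt2, whose product binds Unc5 receptors.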

How the data were processed

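Smart-seq2 cDNA of the sorted cells was made into Nextera XT libraries, which do not mark strand, so overlapping and antisense genes cannot be told apart. The authors aligned the reads to GRCz11 (Ensembl annotation) with STAR 2.5.4b and deposited its count per gene; the count column used is not given in the sources used here. Intervals and floors (3 counts) cover counting error only, since reads carry no molecular identifiers.

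Genes were named with a table of gene identifiers and symbols, which gave 29178 of 31902 features a symbol. The study names 15 members, and its zebrafish name was used unless another member had that symbol. The gene given here as sema6ca is named sema6d in the study. Counts were fitted with edgeR 4.0.16 (R 4.3.3; filterByExpr, TMM, quasi-likelihood F test, Benjamini-Hochberg adjustment over all genes tested): 1 fit for the 16 endodermal libraries, 1 for the 7 EEC libraries and 1 for all 23 libraries. The deleted forms were set against Neurod1 in a separate fit of the 16. Alternatives were DESeq2 1.42.0, limma 3.58.1 (voom with quality weights), RLE scaling, no filter on low counts, fits of only the groups compared, a replicate block, an FDR of 0.05, a level minimum of 10 CPM in EECs and each library left out in turn. Named were all called members, most of the 5 of smallest p in each comparison, the netrin system and some further members. Genes of the pathway list were named where called or among the 3 of smallest p, except for a few that are not reported here. Members and lists were chosen with earlier results of these data known. No pair of replicates agreed within sampling noise. Each test was first run on simulated data. Sequences were not used here.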

Additional observations from a re-analysis of the deposited data

Results flagged for a closer look

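In the groups of 4 libraries, 5 values of named genes stood far from the 3 others, out of 87 sets of 4 examined, and chance alone sets apart about 1 in 20. In mutant EECs ntn1b had 9.28 CPM in replicate 1 and 0 CPM in the 3 others. That library also had the highest neural crest, neuron and endothelium marker sums of the mutant EECs (44.6, 347 and 10.2 CPM), and their part in the value was not tested. In mutant EECs replicate 4, ntn4 had 1.57 CPM, against at most 0.187 CPM in the others, and efnb2 (ENSDARG00000074050) had 0.37 CPM, against 0 CPM in the others. This efnb2 value rests on 4 counts. Where the 3 others stand at 0, as for ntn1b and efnb2, any count is set apart, so the rate of 1 in 20 does not apply. Among Neurod1 libraries, ntn2 had 0.851 CPM in replicate 2, against at most 0.0805 CPM in the others, in the library with the highest muscle marker sum of its group (8260 CPM). Also among Neurod1 libraries, plxnb1 (ENSDARG00000075821) had 29.3 CPM in replicate 1, against 14.7 to 16.8 CPM in the others.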

How the results depend on the processing

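The log2 fold changes of the named genes kept their direction under every alternative run, whereas the number of called members often did not stay within 1.5 times. For Ascl1a against control the 1 call (ntn1a) became 4 with DESeq2, 6 with DESeq2 on only the groups compared, and 0 with RLE scaling (FDR 0.102), with voom, with edgeR on only the groups compared and at an FDR of 0.05, and it was 0 to 1 when 1 library was left out, being kept only without control replicate 3 (FDR 0.0854). For Neurod1 against control the count of 0 became 2 with DESeq2, 3 with DESeq2 on only the groups compared, and 1 (boc) with voom and with edgeR on only the groups compared. For Neurod1 against Ascl1a it became 2 with DESeq2 and 5 with DESeq2 on only the groups compared. For Neurod1ΔUCE it became 1 in both DESeq2 fits and 0 to 1 with 1 library left out. For Neurod1ΔECD it became 1 with DESeq2, 3 with DESeq2 on only the groups compared and 2 with voom, and for mutant EECs it became 1 with DESeq2. Calls over all genes moved as well. With DESeq2, and with DESeq2 on only the groups compared, the 3 for Ascl1a became 91 and 221. The 8 for Neurod1 became 112 and 324, and the 7 for Neurod1 against Ascl1a became 158 and 319. The 11 for Neurod1ΔUCE became 237 and 143, and the 8 for Neurod1ΔECD became 73 and 293. The 3 for mutant EECs became 189 with DESeq2. With voom the counts were 2 for Ascl1a, 12 for Neurod1 and 36 for Neurod1ΔECD. The cause of these differences was not tested. The 36 calls in wild-type EECs against control endoderm ranged between 26 and 33 with 1 library left out and between 26 (FDR of 0.05) and 46 (voom) otherwise. Over all genes the 7767 calls of this comparison became 6076 to 8063 with 1 library left out and 9679 with voom.

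Replicate numbers are shared between groups, but the correlations of the deviations of same-numbered libraries ran between -0.442 and 0.342 and were not above 0.1 for every pair of any comparison, so the numbers only name samples. Every library correlated best with its own number in 1 of 9 pairs of groups (Ascl1a and control), a hint from the data only. With a replicate block, 0 members were called for Ascl1a against control (ntn1a at -3.93, FDR 0.311) and 35 for wild-type EECs against control endoderm, and 0 in each other comparison. Depth limits genes near the floor of 3 counts, which stood at 0 counts in whole groups (ntn2, epha4).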
